A study of Mus musculus with 6 samples.

Results

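Receptors for blood cell growth factors and for cytokines of the gp130 family, 10 in all, were followed in mouse RNA. The tissue was bone just under the joint surface of the mandibular condyle, where the lower jaw meets the skull. They were picked by name from the authors' deposited table of 23170 genes, and all 10 were in it: 6 receptors for blood growth factors (Csf3r, Csf2ra, Csf2rb, Epor, Kit and Flt3) and 4 of the gp130 family (Il6ra, Il6st, Lifr and Osmr). The table compares 3 libraries of partial discectomy, in which part of the joint's disc was removed, with 3 libraries of sham operation. Both groups were wild type mice with the age label P6w+PO2w, with surgery on 1 side, and the operated side was sampled. The number 6 stands in a description of each group, and what it marks is not explained. Whether each library is a different animal, or shares an animal with a library of the other group, is not stated in the labels. The p-values may therefore partly measure technical spread. Nor is it stated what the ending Rctrl (sham) or LPD (partial discectomy) of the descriptions adds. Each ending belongs to 1 group only, so what it marks cannot be told apart from the operation.

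Cytokine receptors of this kind sit on the cell surface and signal through kinases. G-CSF binds the receptor of Csf3r and drives neutrophil formation. GM-CSF binds an alpha chain (Csf2ra) that pairs with a common beta chain (Csf2rb), and erythropoietin binds the receptor of Epor on red cell precursors. Kit and Flt3 are receptor tyrosine kinases of blood stem and progenitor cells, and Kit also marks mast cells. The gp130 family shares the signal chain gp130, which Il6st encodes. Il6ra binds interleukin 6, Lifr binds leukemia inhibitory factor, and Osmr binds oncostatin M, each acting with gp130. Osteoblasts, osteocytes and stromal cells of bone use these receptors, and they signal mainly through Janus kinases and STAT3.

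Sequence just before the start of the gene is shown for 4 receptors on which the comparison turns: the receptor with the largest ratio, the progenitor receptor Kit, the red cell receptor, and gp130 with nearly equal means. Windows are from RefSeq (build GRCm38.p6), written 5′ to 3′ on the gene's strand and cut short where GENCODE M21 counts a base as exon. Capitals mark matches, on either strand, to a PU.1-type motif, a GATA motif or an Sp-type motif, and a match on the other strand reads as the reverse complement.
Csf3r (chr4:126024409-126024549, plus strand): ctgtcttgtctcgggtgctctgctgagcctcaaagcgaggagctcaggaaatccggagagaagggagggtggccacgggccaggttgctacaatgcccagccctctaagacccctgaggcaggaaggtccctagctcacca
Kit (chr5:75574737-75574915, plus strand): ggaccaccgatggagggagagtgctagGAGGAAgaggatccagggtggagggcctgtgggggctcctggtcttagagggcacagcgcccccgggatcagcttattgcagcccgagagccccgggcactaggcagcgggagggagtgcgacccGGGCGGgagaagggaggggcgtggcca
Epor (chr9:21963577-21963826, minus strand): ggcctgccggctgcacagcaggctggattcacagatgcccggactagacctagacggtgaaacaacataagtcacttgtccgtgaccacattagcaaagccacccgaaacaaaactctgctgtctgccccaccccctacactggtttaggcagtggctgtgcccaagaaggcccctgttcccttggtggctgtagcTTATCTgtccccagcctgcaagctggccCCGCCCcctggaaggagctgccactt
Il6st (chr13:112463820-112464069, plus strand): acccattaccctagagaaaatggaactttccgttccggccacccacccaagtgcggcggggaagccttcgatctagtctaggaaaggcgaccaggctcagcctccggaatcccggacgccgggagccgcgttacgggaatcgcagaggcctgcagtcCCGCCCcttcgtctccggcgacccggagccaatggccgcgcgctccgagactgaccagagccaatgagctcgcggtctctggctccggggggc
The Epor stretch holds a GATA and an Sp-type match, the Kit stretch a PU.1-type and an Sp-type match, the Il6st stretch an Sp-type match, and the Csf3r stretch none of them, since its PU.1-type match lies in the bases counted as exon. Over the full 250 bases before the start, which were matched for 9 of the 10 receptors, the PU.1-type letters GAGGAA were found for Csf3r, Csf2ra, Kit, Il6ra and Osmr, and in 23.3% of all 32851 RefSeq windows of that length. The GATA letters AGATAA were found for Epor and Il6ra and in 9.99% of all windows. The Sp-type letters GGGCGG were found for Csf2ra, Kit, Epor, Il6st, Lifr and Osmr and in 32.7%. Lifr has 2 windows, of which 1 held them. The 250 bases held 6 CG pairs for Csf3r and 6 for Epor, the median of all windows, 13 for Flt3, 17 for Csf2ra, and 17 and 18 in the windows of Kit. Among the gp130 receptors they held 18 for Il6ra, 18 for Osmr, 26 for Il6st, and 43 and 3 in the windows of Lifr. The only gp130 count under 18 was thus that of 1 Lifr window, and no matched blood receptor exceeded 18. These are matches of letters and show no binding.

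The table holds no value per library. It gives for each gene the mean of each group in a normalized unit that it does not name, the highest of the 6 libraries and their geometric mean. The smallest group mean is 1, taken here as an offset added to each library's value and called the floor. Together these figures limit where each library can lie. For all 23170 genes at least 1 set of 6 library values met them. Calls rest on an adjusted p under 0.05 in the authors' deposited table, and all 552 genes called had groups that could not overlap. Because the unit is unknown, levels are compared between groups of libraries and not between genes. Sums over a marker list do add genes in that unit, so the highest genes of a list weigh most in them. In bulk RNA, more cells of a type and more RNA per cell cannot be told apart.

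Of the 6 blood growth factor receptors 3 rose after partial discectomy, Csf3r, Flt3 and Csf2ra, and none fell. None of the 4 gp130 family receptors was called in either direction. Among all 23170 genes 2.28% were called higher and 0.104% lower, 2.38% in all, by the authors' deposited table. The median log2 ratio was 1.06 for the blood receptors and 0.23 for the gp130 family, beside 0.08 for all genes. All 6 blood receptors and 2 of the 4 gp130 receptors had a ratio above 1, as did 62.7% of all genes. The libraries of the groups could not overlap for 5 of 6 blood receptors, all of them higher after partial discectomy, which was so for 10.3% of all genes. Of the gp130 receptors 2 had libraries that must overlap, as did 60.0% of all genes, and for the other 2 this could not be settled, as for 26.3%. The 95% limits of all 6 blood receptors lay above equal means, which held for 11.1% of all genes while 3.59% lay below, and all 6 lay above the median ratio of all genes, which held for 8.11%. The difference between both sets of receptors was not tested.

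**Figure D1:**
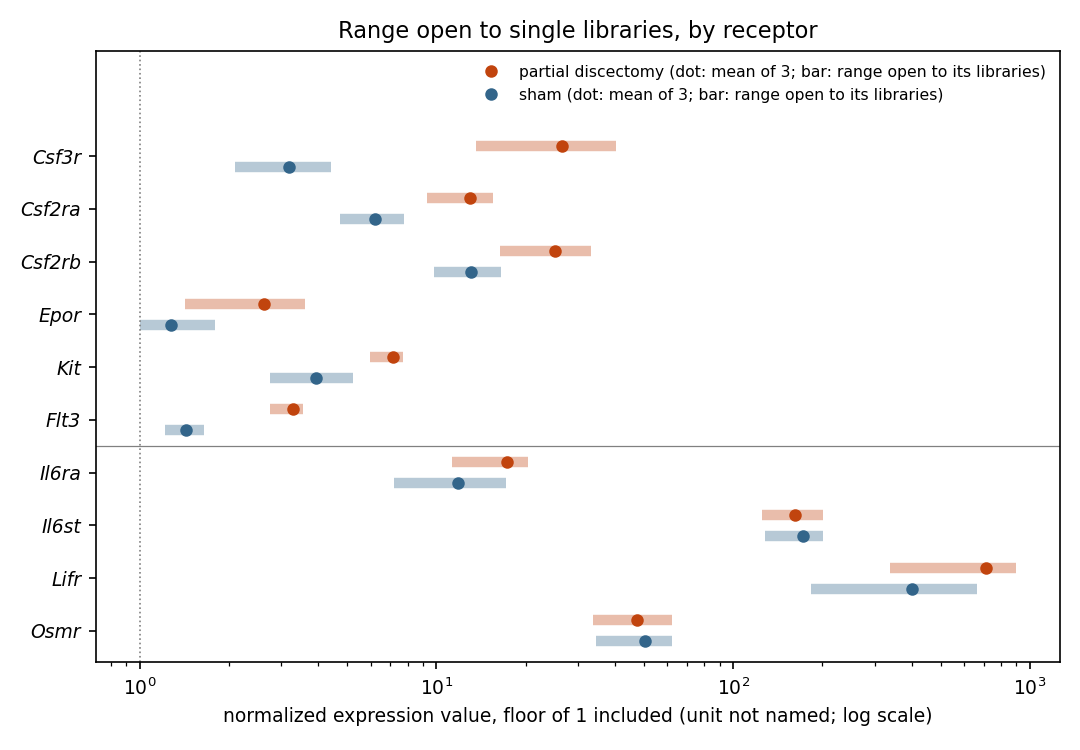
Normalized expression value (horizontal, log scale, floor of 1 included) of each receptor after partial discectomy (orange) and in sham (blue). Dots are the deposited means of 3 libraries, and bars span the values open to single libraries given the deposited means, highest value and geometric mean. The bars of Csf3r, Csf2ra, Kit and Flt3 lie apart, those of Csf2rb touch though no full set of values lets its groups overlap, and those of Il6st and Osmr nearly coincide.

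Csf3r, the G-CSF receptor of neutrophils and their precursors (mm10, chromosome 4, 126024550 to 126044440, plus strand), had the largest ratio of the 10. By the authors' deposited table its mean was 26.6 after partial discectomy against 3.18 in sham, which is a ratio of 8.37 (95% limits 5.01 to 14.0, adjusted p = 0.00759). The highest library, at 40.2, belonged to partial discectomy, the other 2 of that group averaged 19.8 and neither could lie under 13.6, and every sham library lay between 2.09 and 4.40. All partial discectomy libraries were thus above all sham libraries. The highest library held 50.4% of the group total, where an even spread gives 33.3%, and without it the ratio was 6.23. By its ratio Csf3r ranked 22 among 23170 genes. Neutrophil markers moved beside it: 12 of 15 rose, among them Camp (11.8-fold) and Ltf (11.7-fold), granule proteins, in the authors' deposited table. The median log2 ratio of the 15 was 3.55. Their summed mean above the floor was 2641 after partial discectomy and 712 in sham, and Mmp9 made the largest part of it, most of it in sham. Mmp9 was not called, with means of 1152 and 600 (ratio 1.92, adjusted p = 0.368) by the authors' deposited table. The other neutrophil receptor on the lists, the chemokine receptor Cxcr2, rose 11.4-fold (95% limits 5.97 to 21.8) in the authors' deposited table, with its highest library at 51.6. The part of neutrophil number in the Csf3r value was not tested.

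Both chains of the GM-CSF receptor had about 2-fold higher means, and 1 of them passed the threshold. Csf2ra, the alpha chain that binds GM-CSF (chromosome 19, 61223957 to 61228429, minus strand), rose from 6.19 to 13.0, a ratio of 2.10 (1.48 to 2.98, adjusted p = 0.0418) according to the authors' deposited table. Its partial discectomy libraries reached 15.5 and could not lie under 9.29, while sham libraries lay between 4.73 and 7.78. Csf2rb, the beta chain shared with the receptors of interleukins 3 and 5 (chromosome 15, 78325752 to 78353847, plus strand), stood at 25.1 and 13.0, a ratio of 1.93 (1.32 to 2.81, adjusted p = 0.0926) according to the authors' deposited table. Partial discectomy libraries of Csf2rb could lie from 16.4 to 33.2 and sham libraries from 9.86 to 16.5, and no set of values that met the table let them overlap. The groups of both genes were therefore apart, and the threshold separated the chains by their p, not by their ratio. Csf2rb has a near copy beside it, Csf2rb2, which encodes an interleukin 3 receptor chain. In GENCODE M21, 18.4% of the 50-base stretches of the longest Csf2rb transcript also occurred in Csf2rb2, so reads may be split between them. Csf2rb2, chosen because it is the copy, stood at 7.95 and 6.84, a ratio of 1.16 (0.857 to 1.58) in the authors' deposited table. Il3ra, the chain that binds interleukin 3, had a ratio of 1.68 (1.22 to 2.31, adjusted p = 0.109) according to the authors' deposited table, and its groups could not overlap.

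Flt3, a receptor of early lymphoid and dendritic cell progenitors (chromosome 5, 147330741 to 147400489, minus strand), rose 2.30-fold according to the authors' deposited table (1.76 to 3.01, adjusted p = 0.0104), where its mean went from 1.43 to 3.29. The highest library was at 3.56, no partial discectomy library could lie under 2.75, and sham libraries lay between 1.22 and 1.65. These are low values near the floor, and their spread within groups was small. With the floor subtracted the means were 2.29 and 0.429, a ratio of 5.33. Beside Flt3, the dendritic cell list of 10 genes, which includes Flt3 itself, had no other call. Its other genes with the smallest p were Irf8, a transcription factor of dendritic cells and monocytes (ratio 2.48, adjusted p = 0.0872), and Clec9a, a receptor of dendritic cells (1.43, adjusted p = 0.408), according to the authors' deposited table. Of the B cell list 1 of 9 genes rose, Igll1 of B cell precursors (4.91-fold), in the authors' deposited table, and the list's median log2 ratio was 1.30. The summed mean of that list above the floor was 161 after partial discectomy and 86.2 in sham. Ebf1 made the largest part of that sum, with means of 71.2 and 57.1 (adjusted p = 0.528) by the authors' deposited table. The part of dendritic and B cells in the Flt3 value was not tested. An antisense gene, Gm26597, overlaps Flt3 in GENCODE M21, and whether counting used strand is not given in the sources here.

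Kit, the receptor of stem cell factor (chromosome 5, 75574916 to 75656722, plus strand), had a ratio of 1.81 (1.24 to 2.65, adjusted p = 0.109), with means of 7.14 and 3.94 in the authors' deposited table. Its partial discectomy libraries were close together, between 5.99 and 7.72, and all above the sham libraries, which lay between 2.75 and 5.25. The highest library held 36.0% of its group's total, near an even spread. Mast cell markers were mixed beside it: of the 7 measured only Hdc rose (6.09-fold in the authors' deposited table), which encodes the enzyme that makes histamine, which basophils and myeloid cells also use. Ms4a2, a chain of the IgE receptor, had a ratio of 1.97 (adjusted p = 0.0805) and the mast cell protease Cpa3 one of 1.95 (adjusted p = 0.109) by the authors' deposited table. Other mast cell proteases, Mcpt4 and Tpsab1, which are defining markers, were at 1.03 and 1.01 after partial discectomy and 1.10 and 1.12 in sham in the authors' deposited table, at or near the floor. Of 10 stem and progenitor markers 1 rose and 1 fell: Slamf1, a surface protein of stem cells (1.97-fold), and the transcription factor Hlf, which also occurs outside blood (0.334), by the authors' deposited table. Slamf1 was near the floor, with means of 2.15 after partial discectomy and 1.09 in sham. The summed mean of that list above the floor was 116 after partial discectomy and 127 in sham, and that of the mast cell list 15.2 and 3.67. Hdc, with means of 8.91 and 1.46 in the authors' deposited table, made the largest part of the mast cell sum after partial discectomy. The part of these cells in the Kit value was not tested.

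Epor, the erythropoietin receptor (chromosome 9, 21958897 to 21963506, minus strand), had means of 2.62 and 1.27, a ratio of 2.06 (1.30 to 3.25, adjusted p = 0.164) according to the authors' deposited table. Its libraries reached 3.61 after partial discectomy and could lie as low as 1.42, and sham libraries lay between the floor and 1.79, so that whether the groups overlap was not settled. The highest library held 46.0% of the group total, and without it the ratio was 1.67. Both means were low. With the floor subtracted they were 1.62 and 0.272, a ratio of 5.94. Erythroid markers moved beside it: 11 of 12 rose, among them Alas2 of heme synthesis (9.52-fold) and Hbb-bs, a beta globin gene (18.0-fold), in the authors' deposited table. The median log2 ratio of the 12 was 2.96. Their summed mean above the floor was 473 after partial discectomy and 119 in sham, and Tfrc made the largest part of it, most of it in sham. Tfrc was not called, with means of 191 and 105 (ratio 1.81, adjusted p = 0.219) by the authors' deposited table. Of 9 megakaryocyte markers 7 rose, and their summed mean above the floor was 52.5 after partial discectomy and 9.79 in sham. The part of red cell precursors in the Epor value was not tested.

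**Figure D2:**
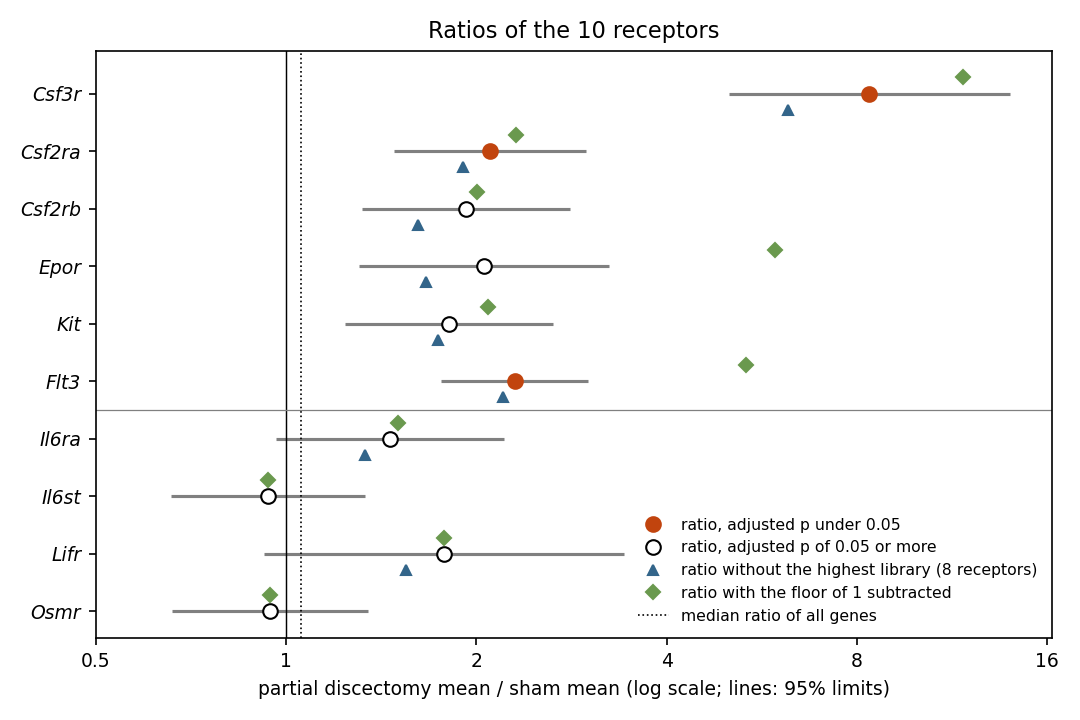
Ratio of the partial discectomy mean to the sham mean (horizontal, log scale) for the 10 receptors. Circles are deposited ratios with 95% limits as lines, filled where the adjusted p was under 0.05. Triangles leave out the highest library, where the table shows that it belonged to partial discectomy, and diamonds have the floor subtracted. Subtracting the floor moves Epor to 5.94 and Flt3 to 5.33 and leaves the gp130 receptors nearly where they were.

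Among the gp130 family, Il6st and Osmr had nearly equal means and Il6ra and Lifr higher ones with wide limits. Il6st, the shared signal chain gp130 (chromosome 13, 112464070 to 112510086, plus strand), had means of 161 and 172, with partial discectomy first, and a ratio of 0.936 (0.659 to 1.33, adjusted p = 0.852) according to the authors' deposited table. Partial discectomy libraries of Il6st could lie from 125 to 200.3 and sham libraries from 128 to 200.3, and the groups must overlap. Osmr, the oncostatin M receptor of osteoblasts and fibroblasts (chromosome 15, 6813577 to 6874969, minus strand), stood at 47.6 and 50.5, a ratio of 0.943 (0.661 to 1.35, adjusted p = 0.933) according to the authors' deposited table. Its libraries also must overlap, with ranges of 33.8 to 62.0 after partial discectomy and 34.4 to 62.0 in sham. For both genes the limits include equal means as well as moderate changes either way.

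Lifr, the leukemia inhibitory factor receptor (chromosome 15, 7090614 to 7197489, plus strand), had means of 711 and 400 and a ratio of 1.78 (0.924 to 3.43, adjusted p = 0.359) according to the authors' deposited table. That ratio was close to the 1.81 of Kit, but the ranges open to single libraries of Lifr were wider relative to the means. Libraries of Lifr could lie from 339 to 897 after partial discectomy and from 184 to 666 in sham. Whether the groups overlap was not settled. The highest library was a partial discectomy one, and without it the ratio was 1.55. Il6ra, the interleukin 6 binding chain, which hepatocytes and blood cells carry (chromosome 3, 89864059 to 89913196, minus strand), stood at 17.3 and 11.8, a ratio of 1.46 (0.965 to 2.21) in the authors' deposited table. Its unadjusted p was 0.0493 and its adjusted p 0.349, where 10.9% of all genes were higher at an unadjusted p under 0.05. Libraries of Il6ra could lie from 11.2 to 20.3 after partial discectomy and from 7.22 to 17.2 in sham. The limits of both genes hold equal means and also a 2-fold rise, so whether Lifr and Il6ra differ from the blood receptors is not known from them. An antisense gene, Gm42809, overlaps Il6ra.

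Bone-forming and stromal markers, which show the labelled tissue, mostly had wide or overlapping ranges beside the gp130 receptors. All 11 osteoblast and osteocyte markers were in the table and none was called, beside 2.38% of all genes. Of these markers 10 had a ratio above 1 (median log2 ratio 0.51), beside 62.7% of all genes. The libraries must overlap for 8 of them, and for 60.0% of all genes. Their summed mean above the floor was 60812 after partial discectomy and 47181 in sham. Most of that sum came from Col1a1 (means of 34180 and 27783) and Col1a2 (20060 and 15384) by the authors' deposited table. In the authors' deposited table Dmp1 of osteocytes, with the smallest p of that list, had a ratio of 1.81 (0.768 to 4.28), and its partial discectomy libraries could lie from 138 to 798. Of the 9 fibroblast and stroma markers 1 rose, the chemokine gene Cxcl12 (4.02-fold in the authors' deposited table), while 7 had a ratio under 1. The groups of Cxcl12 could not overlap. All 8 skeletal muscle markers had a ratio under 1 and libraries that must overlap. All 8 endothelial markers had a ratio above 1, from 1.11 to 1.74 with a median log2 ratio of 0.56, and none was called. Of 10 macrophage markers none was called. The part of these cell types in the gp130 values was not tested.

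Of 9 ligands measured 1 rose and none fell. Kitl, which encodes stem cell factor, the ligand of Kit, rose 1.74-fold according to the authors' deposited table (1.35 to 2.24, adjusted p = 0.0382), with means of 21.0 in sham and 36.5, and its libraries lay between 32.5 and 39.5 after partial discectomy and between 19.3 and 22.8 in sham. Receptor and ligand thus had ratios of 1.81 and 1.74, and neither gene's groups overlapped. Flt3l, the ligand of Flt3, had a ratio of 0.793 (0.524 to 1.20) and Il5, for a receptor that uses Csf2rb, one of 0.994 in the authors' deposited table. Csf3, Csf2, Il3, Epo and Il6 were not analysed here. Of 6 gp130 ligands none was called, and all had a ratio above 1. Osm, which encodes oncostatin M and is made by myeloid cells, was lowly expressed at 1.67 and 1.15, a ratio of 1.46 (1.21 to 1.77, adjusted p = 0.0586), and Lif, leukemia inhibitory factor, stood at 7.11 and 4.56, a ratio of 1.56 (1.13 to 2.15, adjusted p = 0.186), by the authors' deposited table. The groups of Osm and Lif could not overlap, with sham libraries of Osm between 1.12 and 1.17 and partial discectomy libraries between 1.53 and 1.92. In the authors' deposited table Clcf1, Cntf, Ctf1 and Il11 had ratios of 1.25, 1.25, 1.24 and 1.10, with adjusted p from 0.443 to 0.685. The means of Cntf, Ctf1 and Il11 over both groups were less than 1 above the floor, which draws such ratios toward equal means.

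Among other receptors of blood cytokines 4 of 12 rose and none fell, with a median log2 ratio of 0.80. Among them was Cxcr2, which is also on the neutrophil list. Cxcr4, the receptor of Cxcl12, rose 3.08-fold (1.91 to 4.97) and Il1r2, a decoy receptor of interleukin 1, 2.37-fold (1.85 to 3.04), in the authors' deposited table. Il1r2 was near the floor, with means of 2.78 after partial discectomy and 1.17 in sham. With the floor subtracted its ratio was 10.4. All 12 had a ratio above 1, and 6 had groups that could not overlap. Of 9 other gp130-related receptors none was called, beside 2.38% of all genes. A ratio above 1 was found for 5 of them, beside 62.7% of all genes. Their median log2 ratio was 0.12, near the 0.08 of all genes. For 5 of the 9 the mean over both groups was less than 1 above the floor, and with the floor subtracted the median was 0.41. Cntfr, the binding chain for ciliary neurotrophic factor, had means of 1.98 and 5.93 and a ratio of 0.334 (0.185 to 0.603, adjusted p = 0.0954), and Il11ra1, the interleukin 11 receptor, at 10.7 and 21.7, a ratio of 0.491 (0.296 to 0.814, adjusted p = 0.198), according to the authors' deposited table. All partial discectomy libraries of Cntfr were below all sham libraries, as for 3.32% of all genes. Il11ra1 has a near copy, Il11ra2, with 24.1% of the 50-base stretches of its longest transcript shared. Il27ra, the interleukin 27 receptor of lymphoid cells, had a ratio of 1.46 (1.15 to 1.86, adjusted p = 0.123) according to the authors' deposited table. Both binding chains with low ratios signal through gp130, whose own means were nearly equal.

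**Figure D3:**
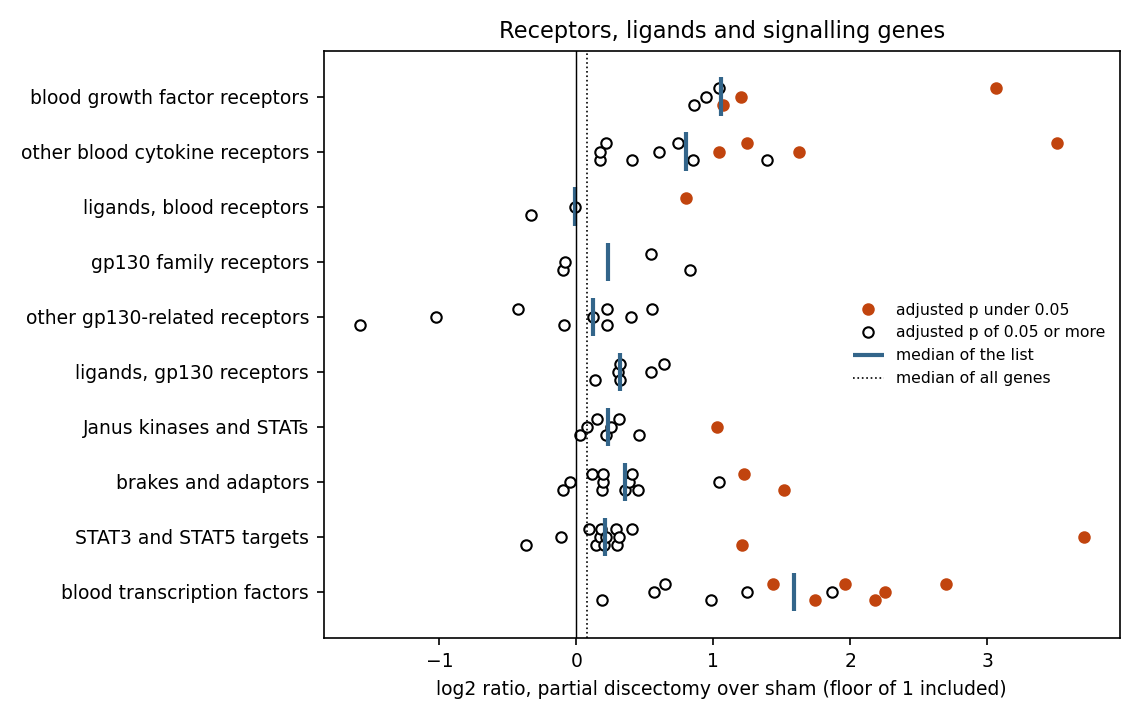
Log2 ratio (horizontal, floor included) of every gene in the table from 10 lists of receptors, ligands, signalling genes and blood transcription factors. Filled circles had an adjusted p under 0.05, the vertical bar is the list's median and the dotted line the median of all genes, 0.08. The blood receptor lists and the blood transcription factors lie to the right, and the 2 lowest circles are Cntfr and Il11ra1.

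Of the kinases and STAT factors that carry receptor signals, 1 of 8 rose: Jak3, the Janus kinase of lymphoid and myeloid cells (2.03-fold, 1.44 to 2.87, adjusted p = 0.0453, by the authors' deposited table). Jak1, a Janus kinase that works with gp130, had a ratio of 1.24 and an adjusted p of 0.580 by the authors' deposited table. The list's median log2 ratio was 0.23. Of 13 brakes and adaptors 2 rose: Ptpn6, which encodes the phosphatase SHP-1 of blood cells (2.86-fold, 1.78 to 4.59), and Btk, a kinase of B and myeloid cells (2.33-fold, 1.64 to 3.31), in the authors' deposited table. Lyn, a kinase that acts below several of these receptors, had a ratio of 2.06 (1.38 to 3.06, adjusted p = 0.0683) according to the authors' deposited table. Of 14 genes known as STAT3 or STAT5 targets 2 rose, the neutrophil protein Lcn2 (13.0-fold), which is also on the neutrophil list, and the kinase Pim1 (2.31-fold, 1.61 to 3.31), and the third by p was Fos (1.32, adjusted p = 0.462), according to the authors' deposited table. Their median log2 ratio was 0.21.

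Transcription factors known to act on blood receptor genes were listed as well. Of these 12 factors 6 rose, none fell, and 10 had groups that could not overlap, with a median log2 ratio of 1.59. They were Nfe2 (6.50-fold), Tal1 (4.78-fold), Klf1 (4.52-fold), Gata1 (3.90-fold) and Lmo2 (3.35-fold), which act in red cell precursors, and Cebpe (2.71-fold), a factor of late neutrophil precursors, in the authors' deposited table. These counts are descriptions of lists chosen with earlier results known, and the lists were not tested against each other.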

How the data were processed

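RNA was sequenced from 6 libraries, 3 of partial discectomy and 3 of sham. STAR 2.6.1d and the build mm10 were used, per the submitters' processing notes; what counted and normalized the reads, and which model gave the p-values, is not given in the sources here. The authors' deposited signal columns are normalized group means in an unnamed unit, beside totals, maxima and geometric means over 6 libraries, so depth is unknown and no counting interval is given. The deposited ratio and log2 ratio divide the partial discectomy mean by the sham mean, floor of 1 included. The signed fold changes and 95% limits, deposited by the authors and entered as a score, were turned into ratios. The deposited p-value was adjusted by the Benjamini-Hochberg method over all 23170 genes, as recomputation showed. The second file held gene positions only.

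Computed here, with Python 3.11.15, NumPy 2.4.6, pandas 2.3.3 and SciPy 1.17.1, were ranges for single libraries, from 3 times each group mean, the maximum, the geometric mean and the floor. They assume that group means are plain means of 3 libraries, were devised after the data were seen, and were tested on simulated data. Gene positions equalled GENCODE M21 for all 10 receptors once the end was written 1-based. Named genes are the 10 receptors, all ligands in the table, and from each other list the called genes with the smallest p, or the 3 with the smallest p where fewer were called; Csf2rb2, Mcpt4 and Tpsab1 were added after their values were seen, and of the marker lists fewer genes are named than the rule allows; some genes the rule picks are not reported here, while the counts of their lists include them. The members and the 22 lists were chosen with earlier results of these data known.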

Additional observations from a re-analysis of the deposited data

How the results depend on the processing

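All 3 calls (Csf3r, Csf2ra and Flt3) and the 0 of the gp130 family held when the deposited p-values were readjusted over protein-coding genes, without the blood cell marker lists, or over genes whose mean exceeds the floor by 1 or more. A minimum of 5 left 2 calls, since Flt3 was too low to enter. By 95% limits that leave out equal means, 6 blood receptors would be called, and 6 by limits that leave out the median ratio of all genes, against 0 gp130 receptors by either. At an unadjusted p under 0.05, 6 blood and 1 gp130 receptor, Il6ra, were higher, though the 95% limits of Il6ra include equal means. With the floor subtracted the median log2 ratio of the blood receptors was 1.81. Without the highest library, where its group is known, the medians were 0.86 for blood and 0.17 for gp130 receptors, and no p can be given. The second median holds 2 receptors without that library (Il6ra 0.41, Lifr 0.63) and 2 unchanged ones (Il6st and Osmr), whose highest library could be in either group. Per receptor, 36 of 36 readjusted p-values stayed on their side of the threshold. The threshold is near for Csf2ra, with adjusted p from 0.0319 to 0.0447 over these settings. No paired analysis was possible because the table holds group means only, and for the same reason no single library could be left out by name. Depth is unknown, and the values nearest the floor, Epor and Flt3, are the least certain in size.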
